A study of Mus musculus with 18 samples.

Results

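Leukocytes hold on to the vessel wall through a small set of surface proteins, and the RNA of 10 of these genes was followed in the mouse heart after a single high dose of radiation. The genes were taken by symbol from the 30072 genes of the deposited tables, as a named set that no threshold on a measured value defines, although earlier results of these data were known when the set was drawn up. They comprised the selectins Sele and Selp with the selectin ligand Selplg, the immunoglobulin-type adhesion molecules Icam1, Icam2 and Vcam1, the junctional adhesion molecules Jam2, Jam3 and F11r, and Cd99l2. All 10 passed the filter on low counts, which 15054 genes passed.

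A leukocyte leaves the blood in steps. E-selectin and P-selectin on activated endothelium catch it and let it roll, ICAM-1, ICAM-2 and VCAM-1 then bind its integrins and bring it to a stop, and proteins of the endothelial junctions, among them the JAM family and CD99L2, take part in its passage through the wall. E-selectin, ICAM-1 and VCAM-1 are classical genes of cytokine-activated endothelium and are induced through NF-κB, whereas ICAM-2 and the junctional proteins are carried by resting endothelium. The name of the group does not hold for every gene in it. Selplg encodes PSGL-1, which is carried chiefly by the leukocyte, P-selectin is also stored by platelets, and F11r (JAM-A) is found on platelets and epithelia.

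All 18 mice were adult CD-1 animals aged at least 8 weeks, of both sexes and with littermate controls. The labels place them on a mixed background, and the study's methods call the CD-1 mice outbred. The 6 control mice, which the labels call untreated and the study calls sham controls, were anesthetized and not irradiated (the study's methods add CT imaging), 6 mice were sampled 2 weeks after a single dose of 25 Gy, and another 6 mice were sampled 6 weeks after that dose. The labels name gamma rays and the septum between the ventricles, the study's methods name a small-animal X-ray irradiator aimed at the whole heart and ventricular tissue, and no sex is given for single mice. RNA came from whole tissue. Estimated counts summed to between 11522979 and 15501002 per mouse, so that a floor of 3 counts lay between 0.194 and 0.260 CPM (counts scaled to a common library size). The cardiomyocyte gene Myh6 averaged 18880 CPM in controls, and the sum of 12 endothelial markers ranged from 1205 to 1458 CPM.

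The promoters of 3 inducible genes are shown because NF-κB and other inducers of these genes act at such regions. RefSeq promoter sequences were at hand for 5 of the 10 genes, Icam1, Sele, Selp, F11r and Cd99l2, and not for Icam2, Vcam1, Selplg, Jam2 and Jam3. Each sequence below is the 250 bases before the RefSeq transcription start, 5′ to 3′ on the plus strand of GRCm38.p6, and capitals mark matches to GGNNNTTCC, a form of the NF-κB motif, on either strand. The windows are chr9:21015690-21015939 for Icam1, chr1:164047984-164048233 for Sele and chr1:164115014-164115263 for Selp.
Icam1: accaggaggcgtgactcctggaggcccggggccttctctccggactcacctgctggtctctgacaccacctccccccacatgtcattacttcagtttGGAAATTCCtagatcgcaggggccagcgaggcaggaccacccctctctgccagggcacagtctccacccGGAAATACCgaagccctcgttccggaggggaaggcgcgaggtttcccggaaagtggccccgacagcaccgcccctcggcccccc
Sele: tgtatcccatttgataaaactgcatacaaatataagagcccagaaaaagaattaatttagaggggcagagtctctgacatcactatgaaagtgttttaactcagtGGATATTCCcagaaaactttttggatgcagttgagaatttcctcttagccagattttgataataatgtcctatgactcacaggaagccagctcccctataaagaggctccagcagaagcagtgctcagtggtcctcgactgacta
Selp: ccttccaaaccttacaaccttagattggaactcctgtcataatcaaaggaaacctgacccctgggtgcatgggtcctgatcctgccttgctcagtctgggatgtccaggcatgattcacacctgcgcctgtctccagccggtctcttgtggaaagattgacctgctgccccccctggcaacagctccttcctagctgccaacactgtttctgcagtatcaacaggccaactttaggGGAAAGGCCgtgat
The Icam1 window held GGAAATTCC at position -153, which matches on both strands, and GGAAATACC at -84, a match on the minus strand. The Sele window held GGATATTCC at -145, and the Selp window held GGAAAGGCC at -14 as a minus-strand match. No match was present in the windows of F11r and Cd99l2. Of 32851 mouse promoters of the same length, 15.7% held at least 1 match. Another motif, TTCNNNGAA, a form bound by STAT proteins, was found at -42 in Icam1 and at -140 in Sele, where it overlaps the capitals, and in 7.02% of all promoters. These matches describe the letters only.

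At 6 weeks post-IR the adhesion genes had divided into a group that was higher than in controls, led by Sele, Selplg, Selp and Icam1, and a group that was lower, led by Jam2. By edgeR's quasi-likelihood test with Benjamini-Hochberg adjustment over all genes tested, 8 of the 10 genes differed from control at 6 weeks at an adjusted P under 0.05, 5 higher and 3 lower, where 25.0% of all genes tested passed the same threshold (13.5% higher, 11.5% lower). At 2 weeks, 3 of the 10 differed from control, 2 higher and 1 lower, against 5.02% of all genes (3.09% higher, 1.93% lower). Between 2 and 6 weeks, 3 of the 10 differed, all higher at 6 weeks, against 5.33% of all genes (3.31% higher, 2.01% lower). In whole tissue, a change in the number of cells of a type and a change in the RNA of each cell cannot be told apart.

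**Figure D1:**
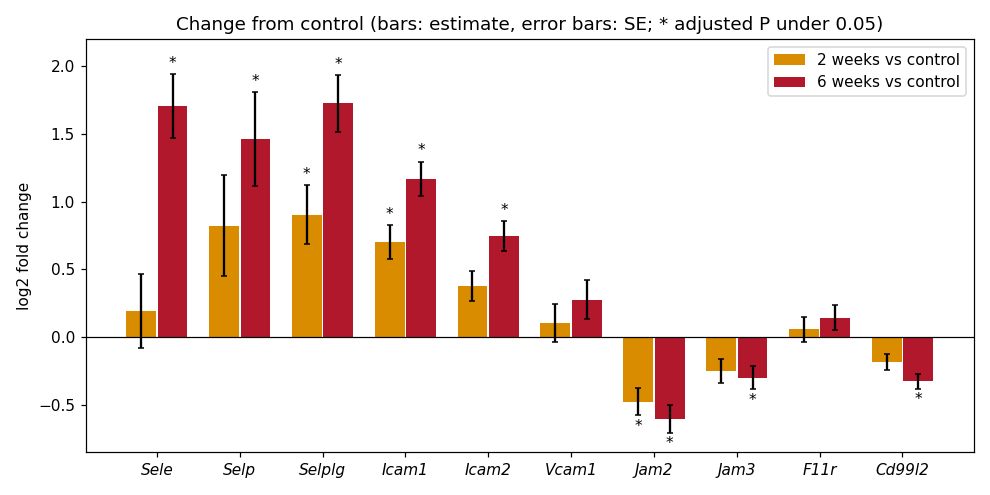
Log2 fold change from control (y axis) of each adhesion gene (x axis) at 2 and 6 weeks post-IR, as bars with the SE, n = 6 mice per group; an asterisk marks an adjusted P under 0.05. Sele, Selp, Selplg, Icam1 and Icam2 stand above 0 at 6 weeks with an asterisk, and Jam2, Jam3 and Cd99l2 below 0, although Jam3 and Cd99l2 lie above 0 when values are expressed as TPM.

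The split between higher and lower genes depended on how the mice were scaled to each other. The 5 higher and 3 lower genes at 6 weeks were obtained with TMM scaling, which sets the bulk of genes to no change. With the total count as the only scaling, 7 were higher and 1 was lower, and with log2 of the length-adjusted abundances (TPM) 7 were higher and 0 were lower. Of the 15054 genes tested, 5820 were called at 6 weeks with library size only and 7463 with log2(TPM + 0.1). Those scalings also shifted the middle of the whole transcriptome, with a median over all tested genes of 0.24 on the log2 scale with library size only, of 0.37 with a pseudocount of 0.1 TPM and of -0.02 with TMM. By TMM the 10 genes had a median log2 fold change of 0.51 at 6 weeks and 0.15 at 2 weeks.

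The size of the changes differed as well. With the study's added requirement of an absolute log2 fold change above 1, 4 of the 10 genes passed at 6 weeks (Icam1, Sele, Selp and Selplg), against 5.95% of all genes tested, none passed at 2 weeks, against 0.903%, and Sele alone passed between 2 and 6 weeks, against 1.14%. The 6-week and control mice did not overlap for 6 of the 10 genes, against 9.23% of all genes, and these were Icam1, Icam2, Sele and Selplg above the controls (5.80% of all genes) and Jam2 and Cd99l2 below them (3.43%). At 2 weeks the groups were apart for Icam1 only, above the controls, against 3.24% of all genes (1.96% above), and between 2 and 6 weeks for Icam1, Sele and Selplg, with the 6-week mice above, against 3.54% (2.27% above). The comparisons with control share the same 6 control mice.

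**Figure D2:**
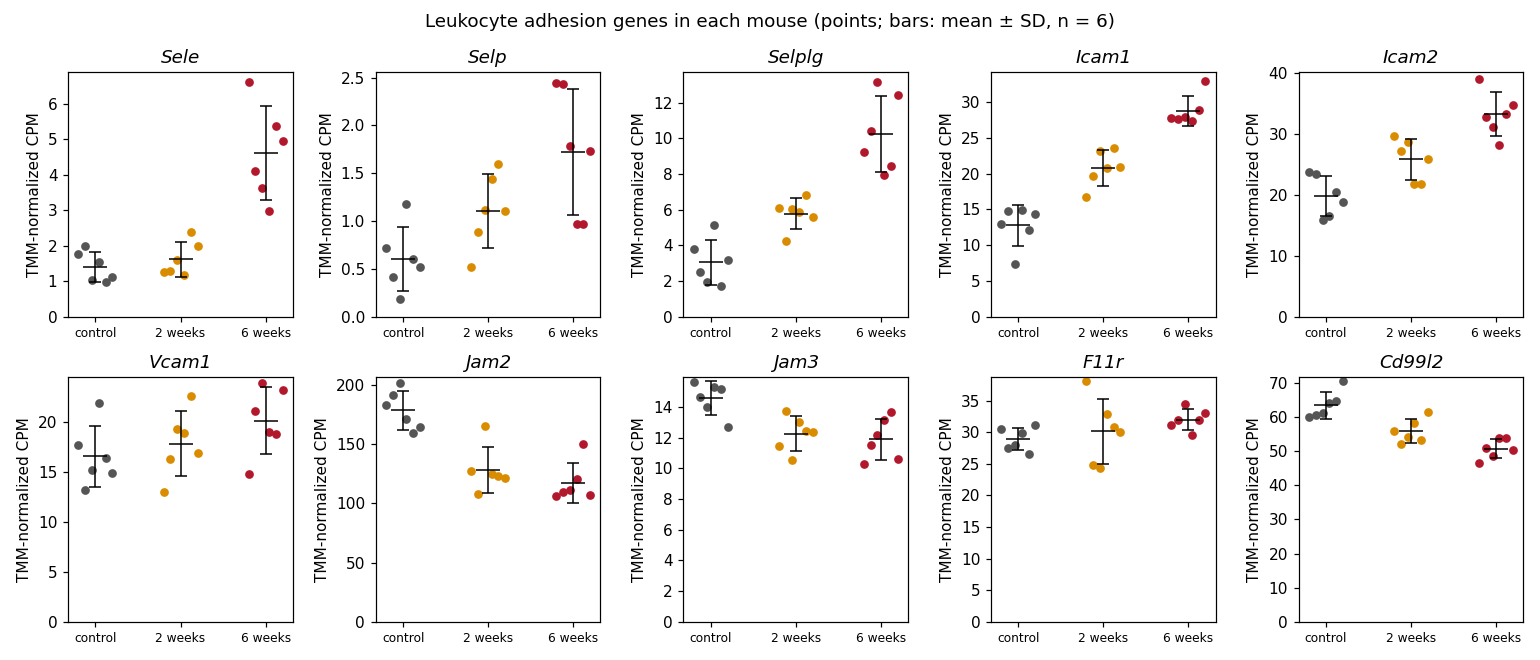
TMM-normalized CPM (y axis, from 0) of each adhesion gene in every mouse (points), with the mean and SD of the 6 mice per group (bars), for control, 2 weeks and 6 weeks post-IR (x axis). All 6-week points of Sele, from 2.97 CPM, lie above every control and 2-week point, and all 6-week points of Cd99l2 lie below every control point.

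Sele, the gene of E-selectin, is almost confined to activated endothelium and is transcribed at chr1:164048234-164057677 on the plus strand. It was among the least abundant of the 10 genes, with a lowest, median and highest value of 0.983, 1.32 and 2.00 CPM in the control mice. At 2 weeks these values were 1.18, 1.44 and 2.39 CPM, and at 6 weeks 2.97, 4.53 and 6.62 CPM. Control and 2-week mice overlapped throughout, while each 6-week mouse lay above all of them. The rise at 6 weeks was 3.26-fold (log2 fold change 1.71 ± 0.23 SE, adjusted P = 4.73e-05), and from 2 to 6 weeks it was 2.86-fold (log2 1.51 ± 0.22, adjusted P = 0.0017). At 2 weeks the difference from control was 0.19 ± 0.27 on the log2 scale (adjusted P = 0.745, 95% interval -0.38 to 0.76), so that an increase of the 6-week size was outside its interval. Sele kept its call at 6 weeks with any single mouse left out (log2 1.56 to 1.83).

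Selp, which encodes P-selectin of endothelial granules and platelets, lies on the same strand of chromosome 1 at chr1:164115264-164150026. It had the lowest level of the group, with 2 to 17 counts in a control mouse, 7 to 24 at 2 weeks and 12 to 41 at 6 weeks. In CPM the lowest, median and highest values were 0.185, 0.561 and 1.18 in the control group, 0.514, 1.11 and 1.59 in the 2-week group, and 0.964, 1.76 and 2.45 in the 6-week group. The groups overlapped, since 1 control mouse lay above the lowest 2 of the 6-week mice and the lowest control value was below the floor of 3 counts. Selp was 2.76-fold higher at 6 weeks than in controls (log2 1.46 ± 0.34, adjusted P = 0.00421). The 2-week difference of 0.82 ± 0.37 did not pass (adjusted P = 0.218), nor did the difference between 2 and 6 weeks of 0.64 ± 0.30 (adjusted P = 0.227). Exons of Selp share 438 bases with the opposite-strand gene Gm16548 and 186 bases with Gm16587. Neither has a row in the deposited tables, and since no source used here states whether strand was used in counting, their reads cannot be told apart from those of Selp.

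Platelet genes were measured beside Selp because platelets carry P-selectin. Of 7 platelet and megakaryocyte genes 5 passed the filter, and none of these was called in any comparison by the edgeR test (adjusted P at 6 weeks from 0.36 to 0.98, and 0 of 5 at an unadjusted P under 0.05). At 6 weeks 0 of the 5 were called by DESeq2 and 1 was called higher on the log2(TPM + 0.1) scale. Of the 15054 genes tested, these fits called 3954 and 7463. Their summed level ranged from 9.44 to 16.9 CPM among the controls, from 11.2 to 17.3 in the 2-week mice and from 11.8 to 18.7 in the 6-week mice, and the 6-week difference in their mean log2 CPM was 0.08 (exact permutation test, two-sided, P = 0.866). Gp9 and Treml1 had at most 4 counts in any mouse. By TMM scaling, called markers of venous and endocardial endothelium, where P-selectin and von Willebrand factor are stored, were lower at 6 weeks. The exception was Selp itself, which is on that list along with Vcam1. Vwf had a log2 fold change of -0.68 at 6 weeks (adjusted P = 0.0049) and Npr3 of -0.73 (adjusted P = 0.004). The direction of the list depended on the scaling. With library size only, 3 of its 6 tested genes were higher at 6 weeks and 1 was lower. On the log2(TPM + 0.1) scale 3 were higher and 0 lower. These scalings called 5820 and 7463 of the 15054 genes tested. Ackr1, a marker of venules, had at most 3 counts in any mouse.

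Selplg encodes PSGL-1, the leukocyte ligand of P-selectin, which also binds E-selectin, and lies at chr5:113818536-113832644 on the minus strand. Its lowest, median and highest values were 1.74, 2.85 and 5.13 CPM in the control group, 4.25, 5.97 and 6.83 in the 2-week group, and 7.93, 9.83 and 13.2 in the 6-week group. The levels stepped up at both times: 1 control mouse overlapped the 2-week range, and every 6-week mouse lay above every other mouse. The gene was 1.87-fold higher than control at 2 weeks (log2 0.90 ± 0.22, adjusted P = 0.0227) and 3.30-fold higher at 6 weeks (log2 1.72 ± 0.21, adjusted P = 1.33e-05). The increase between 2 and 6 weeks was 1.77-fold (log2 0.82 ± 0.19, adjusted P = 0.0218). The 2-week call for Selplg was lost without control mouse 3 (adjusted P = 0.0528) or without 2-week mouse 5 (0.0532). The call between 2 and 6 weeks was lost without 2-week mouse 2 (adjusted P = 0.0513), 6-week mouse 3 (0.0512) or 6-week mouse 6 (0.0526), and the log2 fold changes stayed between 0.74 and 0.89.

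Icam1, the counter-receptor of the leukocyte integrins LFA-1 and Mac-1, rose in steps. It lies at chr9:21015985-21028817 on the plus strand, beside Icam4, which starts 555 bases away. In the 6 controls it ranged from 7.40 through a median of 13.7 to 14.9 CPM, in the 2-week mice from 16.7 through 20.8 to 23.5 CPM, and in the 6-week mice from 27.4 through 27.8 to 33.0 CPM. No mouse of one group overlapped another group. Icam1 was 1.63-fold higher than control at 2 weeks (log2 0.70 ± 0.13, adjusted P = 0.0044) and 2.25-fold higher at 6 weeks (log2 1.17 ± 0.13, adjusted P = 4.51e-06), both with each mouse left out in turn (adjusted P of at most 0.0119 and 2.37e-05).

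The step between 2 and 6 weeks was less firm. Icam1 was 1.38-fold higher at 6 than at 2 weeks (log2 0.47 ± 0.12, adjusted P = 0.0345). This call was lost when any 1 of 8 mice was left out, namely 2-week mice 1, 2, 4 and 6 and 6-week mice 1, 3, 5 and 6, with adjusted P between 0.0544 and 0.0805 and log2 fold changes of 0.41 to 0.48. The Icam1 exons share 511 bases with the antisense gene Gm47079, which has no row in the deposited tables, so reads of the pair cannot be told apart. The neighbouring family members Icam4 and Icam5 averaged 0.37 and 0.21 CPM in controls, and neither was called at 6 weeks (adjusted P = 0.83 and 0.58).

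Icam2, a ligand of LFA-1 that endothelium carries without stimulation, lies at chr11:106377656-106388075 on the minus strand. Its lowest, median and highest values were 15.8, 19.7 and 23.7 CPM in the control group, 21.8, 26.5 and 29.7 in the 2-week group, and 28.2, 33.0 and 39.0 in the 6-week group. The 6-week mice all lay above the controls, with the 2-week mice between and overlapping both. The rise at 6 weeks was 1.67-fold (log2 0.74 ± 0.11, adjusted P = 0.000106). Each part of that rise missed the threshold: 0.38 ± 0.11 at 2 weeks (adjusted P = 0.0577) and 0.37 ± 0.11 from 2 to 6 weeks (adjusted P = 0.0586). Without control mouse 1 (adjusted P = 0.0321), control mouse 2 (0.0431) or 2-week mouse 4 (0.0417) Icam2 passed at 2 weeks, and without 6-week mouse 4 it passed between 2 and 6 weeks (0.0358). Of 12 alternative fits, 6 called Icam2 higher at 2 weeks, among them DESeq2 (adjusted P = 0.0261) and library size only (0.0115), and 7 called it higher from 2 to 6 weeks, among them DESeq2 (0.0249) and limma voom (0.0295).

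Vcam1, the counter-receptor of the integrin VLA-4, lies at chr3:116109949-116129688 on the minus strand and did not pass the test in any comparison. It ranged from 13.2 through 15.8 to 21.9 CPM among the controls, from 12.99 through 17.9 to 22.5 in the 2-week mice and from 14.8 through 20.0 to 23.9 in the 6-week mice. The 3 ranges nearly coincided. The log2 fold change was 0.11 ± 0.14 at 2 weeks (adjusted P = 0.729) and 0.28 ± 0.14 at 6 weeks (adjusted P = 0.166), with a 95% interval at 6 weeks from -0.02 to 0.57. With library size as the only scaling, Vcam1 passed at 6 weeks at 0.53 (adjusted P = 0.0108), and with log2(TPM + 0.1) at 0.69 (0.0027). For Icam1, a gene of the same step of adhesion, the 6-week interval ran from 0.90 to 1.43, and the difference between the genes was not tested. Exons of Vcam1 share 61 bases with the antisense gene Gm43109, which has no row in the tables.

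Jam2, the most abundant of the 10 genes in controls and a protein of endothelial junctions that binds JAM-C and VLA-4, lies at chr16:84774123-84825928 on the plus strand. Its lowest, median and highest values were 159, 177 and 202 CPM in the control group, 107, 124 and 165 in the 2-week group, and 106, 111 and 150 in the 6-week group. All 6-week mice lay below all controls, and 1 mouse at 2 weeks overlapped them. Jam2 fell to 0.718 of the control level at 2 weeks (log2 -0.48 ± 0.10, adjusted P = 0.0106) and to 0.658 at 6 weeks (log2 -0.60 ± 0.10, adjusted P = 0.000259). The difference between 2 and 6 weeks was -0.13 ± 0.10 (adjusted P = 0.507). Both falls of Jam2 kept their direction and lost their call on the TPM scale, where log2(TPM + 0.1) differed by -0.21 at 2 weeks (adjusted P = 0.147) and by -0.21 at 6 weeks (0.104).

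Jam3, whose protein JAM-C pairs with JAM-B across the junction, lies at chr9:27097384-27155421 on the minus strand. It ranged from 12.7 through 14.9 to 15.6 CPM among the controls, from 10.6 through 12.4 to 13.7 in the 2-week mice and from 10.3 through 11.8 to 13.7 in the 6-week mice. The ranges overlapped through control mouse 6, the lowest of its group. By TMM scaling Jam3 was 0.813 of control at 6 weeks (log2 -0.30 ± 0.09, adjusted P = 0.0174), but the direction turned on the log2(TPM + 0.1) scale (0.11, adjusted P = 0.381) and the difference was -0.04 with library size only (0.746). The 2-week difference was -0.25 ± 0.09 (adjusted P = 0.104). Jam3 shares 1159 exon bases with the antisense gene Gm48796, which has no row in the tables, and these reads cannot be told apart.

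Cd99l2, a relative of CD99 at endothelial junctions with a part in leukocyte passage, lies at chrX:71420060-71492849 on the minus strand. Its lowest, median and highest values were 59.9, 62.6 and 70.5 CPM in the control group, 52.1, 55.1 and 61.3 in the 2-week group, and 46.7, 50.6 and 53.8 in the 6-week group. All 6-week mice lay below all controls. By TMM scaling Cd99l2 was 0.798 of control at 6 weeks (log2 -0.32 ± 0.06, adjusted P = 0.0004), but it was higher than control on the log2(TPM + 0.1) scale (0.10, adjusted P = 0.208) and differed by -0.06 with library size only (0.416). At 2 weeks the difference was -0.18 ± 0.06 (adjusted P = 0.0665). Its exons share 34 bases with the antisense gene Gm16189, which has no row in the tables. Cd99 itself was not analysed here.

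F11r, which encodes JAM-A, a ligand of LFA-1 at junctions, lies at chr1:171437535-171464603 on the plus strand and was not called in any comparison. It ranged from 26.6 through 28.9 to 31.1 CPM among the controls, from 24.3 through 30.4 to 38.02 in the 2-week mice and from 29.5 through 31.9 to 34.5 in the 6-week mice. The 2-week mice spread wider than the controls on both sides. The log2 fold change at 6 weeks was 0.14 ± 0.09 (adjusted P = 0.273, 95% interval -0.05 to 0.33). It passed at 0.61 on the log2(TPM + 0.1) scale (adjusted P = 0.000699) and at 0.41 with library size only (0.00496), and was -0.06 when the mice were scaled to endothelial markers (0.69).

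**Figure D3:**
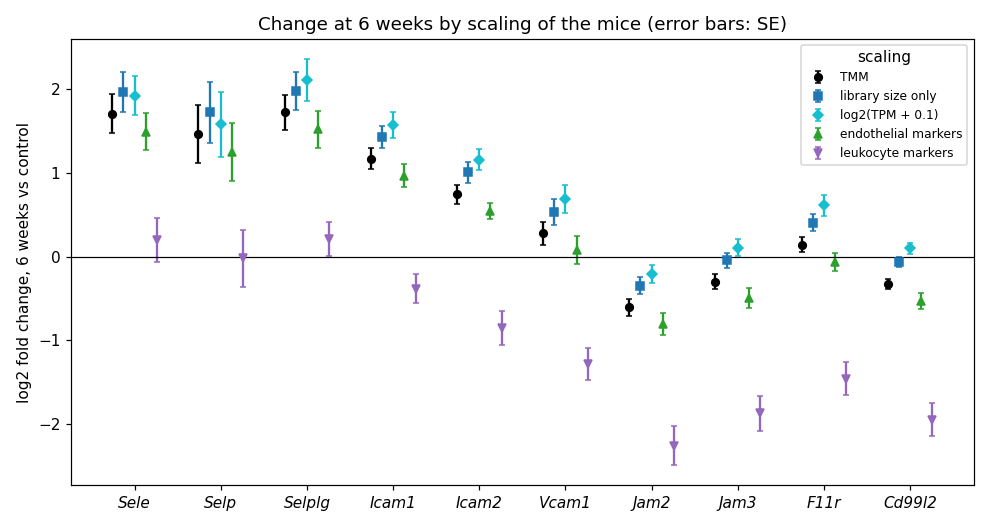
Log2 fold change at 6 weeks against control (y axis, points with SE, n = 6 mice per group) of each gene (x axis) under 5 ways of scaling the mice. Sele, Selp, Selplg, Icam1 and Icam2 lie above 0 under TMM, library size, TPM and endothelial-marker scaling, Jam3 and Cd99l2 change sign between TMM and TPM, F11r turns below 0 under endothelial-marker scaling, and under leukocyte-marker scaling only Sele and Selplg lie above 0. Under leukocyte-marker scaling the median over all genes tested is -1.60.

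Compared with one another per length, in TPM, the genes covered a wide range of levels. In controls the order was Jam2 (mean 44.3 ± 5.79 TPM, SD, n = 6), Cd99l2 (21.1 ± 1.47), Icam2 (17.9 ± 3.74), F11r (13.1 ± 1.99), Jam3 (9.09 ± 1.47), Vcam1 (5.23 ± 1.32), Icam1 (5.10 ± 1.25), Selplg (1.20 ± 0.588), Sele (0.528 ± 0.178) and Selp (0.294 ± 0.277). Only 3 steps of that order separated the mice of neighbours without overlap, those from Jam2 to Cd99l2, from Jam3 to Vcam1 and from Icam1 to Selplg. Junctional genes and Icam2 thus filled the upper part and the selectins the lower part of the order.

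By 6 weeks the order had altered at its top and its middle. Icam2 (39.7 ± 5.15 TPM) then stood beside Jam2 (38.3 ± 3.02) with overlapping mice, followed by Cd99l2 (22.6 ± 0.765), F11r (20.0 ± 1.503) and Icam1 (15.0 ± 1.73). Icam1 was by then apart from both F11r above it and Jam3 below it (9.73 ± 0.673 TPM). Vcam1 (8.42 ± 1.67), Selplg (5.23 ± 1.34), Sele (2.29 ± 0.702) and Selp (1.01 ± 0.517) followed, with Selplg and Sele apart. At 2 weeks the order ran from Jam2 (38.4 ± 6.17) and Icam2 (27.6 ± 3.95) down to Sele (0.715 ± 0.207) and Selp (0.662 ± 0.281). The selectins remained the lowest genes in all 3 groups.

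**Figure D4:**
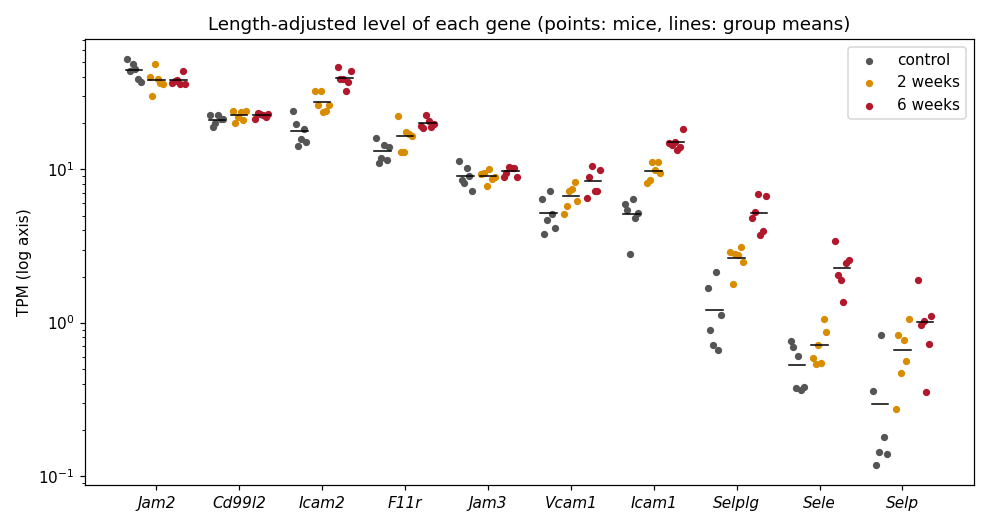
Length-adjusted level in TPM (y axis, log scale) of each adhesion gene (x axis, in the order of the control means) in every mouse (points), with group means (lines), n = 6 per group. Icam2 reaches the level of Jam2 at 6 weeks (39.7 and 38.3 TPM), and Icam1 moves from the level of Vcam1 in controls (5.10 and 5.23 TPM) to above it.

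Ratios within a mouse show the same reordering without any scaling between mice, and were taken after these levels had been seen, as a description. The TPM ratio of Icam1 to Vcam1 ranged from 0.601 to 1.43 in controls, where it exceeded 1 in 2 of 6 mice, from 1.34 to 1.58 at 2 weeks and from 1.43 to 2.30 at 6 weeks. All irradiated mice thus held more Icam1 than Vcam1 per length. The ratio of Icam2 to Jam2 ranged from 0.292 to 0.471 in controls, from 0.606 to 0.870 at 2 weeks and from 0.840 to 1.27 at 6 weeks, and exceeded 1 in 4 of 6 mice at 6 weeks. For this pair no irradiated mouse overlapped a control. The ratio of Sele to Selp had medians of 2.36, 1.17 and 2.22 in the 3 groups and overlapping ranges.

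The proteins on the other side of these contacts were read from lists of genes chosen by function, with CPM given as mean ± SD of 6 mice and log2 fold changes as ± SE. Of 9 integrin subunits of leukocytes and their partners, 7 were higher than control at 6 weeks and 0 lower, with a median log2 fold change of 1.27, beside -0.02 over all genes tested, of which 13.5% were called higher. Itgb1, called higher, and Itga9 averaged 337 and 89.4 CPM in controls, far above the leukocyte marker Ptprc at 7.54 CPM. With endothelial-marker scaling 5 were higher and 0 lower, where 5444 of all 15054 genes were called. With leukocyte-marker scaling 1 was higher and 3 lower, where 13681 were called. Itgam, the Mac-1 chain that binds ICAM-1, rose from 7.65 ± 3.37 to 19.4 ± 2.63 CPM (log2 1.32 ± 0.19, adjusted P = 8.14e-05). Itgax, the chain of a related integrin of dendritic cells and macrophages, rose from 0.315 ± 0.195 to 5.04 ± 4.32 CPM (log2 3.92 ± 0.62, adjusted P = 0.000162). Itgb7, the partner of the VLA-4 alpha chain in a gut-homing integrin, rose from 0.734 ± 0.282 to 2.49 ± 0.747 CPM (log2 1.72 ± 0.28, adjusted P = 0.000195). At 2 weeks, 1 of the 9 was called, Itgam at 0.71 ± 0.20 (adjusted P = 0.0417), where 5.02% of all genes were.

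Ligands, carriers and glycosyltransferases of the selectin system formed the next list. Of 16 such genes 14 were tested and 7 were higher at 6 weeks, where 13.5% of all genes were, with none lower. The median log2 fold change was 0.14. With the mice scaled to endothelial markers, 4 were higher and 3 lower, with a median of -0.07, beside -0.23 over all genes tested. That scaling called 5444 of the 15054 genes at 6 weeks. Emcn, on this list, is also among those endothelial markers. Spn, the leukocyte sialomucin CD43, rose most surely, from 1.04 ± 0.706 to 5.38 ± 1.54 CPM (log2 2.29 ± 0.32, adjusted P = 5.79e-05). Cd44, a hyaluronan receptor that also binds E-selectin, rose by 1.35 ± 0.21 on the log2 scale (adjusted P = 0.000147). Cd34, a sialomucin of endothelium and progenitors, had a log2 fold change of 0.54 ± 0.10 (adjusted P = 0.000887). At 2 weeks 1 of the 14 was called, Cd44 at 0.80 ± 0.21 (adjusted P = 0.0364), where 5.02% of all genes were, so that the share of the list lay near that of all genes.

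Other genes of transmigration and adhesion, not all of them endothelial or junctional, were higher at 6 weeks where they were called. Of 16 genes on this list 14 were tested. Of these, 8 were higher at 6 weeks, where 13.5% of all genes were, and none was lower (median log2 fold change 0.39). With the mice scaled to endothelial markers 5 were higher and 1 lower, where 5444 of the 15054 genes tested were called. Pecam1, Cdh5 and Esam are themselves among those markers. Mcam, the adhesion molecule CD146, averaged 32.4 ± 2.29, 52.6 ± 6.24 and 93.8 ± 14.1 CPM in the control, 2-week and 6-week mice and rose at both times (log2 0.70 ± 0.10, adjusted P = 0.000445, and 1.53 ± 0.10, adjusted P = 9.05e-09). Pecam1, the junctional molecule CD31, rose from 128 ± 12.2 to 178 ± 12.2 and 238 ± 32.1 CPM (log2 0.48 ± 0.08, adjusted P = 0.00366, and 0.90 ± 0.08, adjusted P = 9.83e-07). Cd44, also on this list, was the third of the smallest adjusted P values. In the list of ezrin, moesin and other adaptors that dock ICAM-1 and VCAM-1 to actin, 4 of 9 were higher and none lower. Of all genes 13.5% were higher, and with endothelial-marker scaling 3 of the list were higher and 1 lower. The list was led by Actn4 (log2 0.98 ± 0.08, adjusted P = 2.03e-07), Msn (0.62 ± 0.09, adjusted P = 6.76e-05) and Rhog (0.78 ± 0.16, adjusted P = 0.00138).

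The last list held cytokines that induce E-selectin and ICAM-1, their receptors, NF-κB subunits, and inhibitors and target genes of NF-κB. Of 22 genes 16 were tested, and 9 were higher at 6 weeks with none lower, with a median log2 fold change of 0.36, where 13.5% of all genes were higher. Of the 9, Tnfaip3 is an inhibitor of NF-κB and Birc3 and Ccl2 are among its target genes. With the mice scaled to endothelial markers 3 of the 16 were higher (median 0.16), with library size only 15 were, and on the log2(TPM + 0.1) scale all 16 were. Over the 15054 genes tested, these scalings called 5444, 5820 and 7463 genes in either direction. Il1b, a cytokine that activates endothelium, averaged 0.629 ± 0.544, 0.390 ± 0.0796 and 3.27 ± 1.88 CPM in the control, 2-week and 6-week mice (log2 2.31 ± 0.43 against control, adjusted P = 0.000688). Its difference at 2 weeks was -0.71 ± 0.63 (adjusted P = 0.57). Ltb, a lymphotoxin chain, rose by 1.91 ± 0.40 on the log2 scale from 0.193 ± 0.142 CPM (adjusted P = 0.00147). Nfkb2, an NF-κB subunit, rose by 0.33 ± 0.07 (adjusted P = 0.00275), and was the gene of this list called at 2 weeks (0.31 ± 0.07, adjusted P = 0.0192). Il6, Il1a, Lta, Il4, Il13 and Ifng did not pass the filter and had at most 7 counts in any mouse.

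Leukocyte genes were higher in the same tissue. All 10 pan-leukocyte markers were higher at 6 weeks and 6 of 10 at 2 weeks, where 13.5% and 3.09% of all genes were. Their summed level ranged from 36.6 to 118 CPM among the controls, from 101 to 131 in the 2-week mice and from 147 to 243 in the 6-week mice. The difference in their mean log2 CPM was 0.83 at 2 weeks (exact permutation test over mice, two-sided, P = 0.00433, adjusted over 30 such tests 0.0162) and 1.59 at 6 weeks (P = 0.00216, the smallest that 6 against 6 mice allow, adjusted 0.0108). Of 6 macrophage markers 5 were higher at 6 weeks, and of 6 tested lymphocyte markers 3, against the same 13.5% of all genes. The 6 lymphocyte markers averaged 0.0836 to 0.325 CPM in controls and had at most 21 counts in any mouse. The filter asked for 6 mice from any group, so such genes could enter through irradiated mice alone. A stricter filter on low counts left 0 of them. Of 5 neutrophil markers 2 were tested and 1 was higher, Csf3r, the receptor of a granulocyte growth factor (log2 1.28, adjusted P = 0.0154, up to 61 counts in a mouse). S100a9 reached 17 counts and was not called (adjusted P = 0.391), S100a8 reached 4 counts, and Ly6g and Mpo reached 1.

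The share of these leukocytes in the changes of the adhesion genes was not tested, but each gene can be read against the leukocyte markers. When the mice were scaled so that the pan-leukocyte markers were equal, Selplg at 6 weeks was at 0.21 (adjusted P = 0.313) and Sele at 0.20 (0.467) on the log2 scale, and neither was called. On that scale Selp was at -0.02 (0.958), Icam1 at -0.38 (0.0402), Icam2 at -0.85 (0.000333), Vcam1 at -1.28 (6.35e-07) and F11r at -1.46 (1.18e-07), so that Selp was not called and the other 4 were called lower. Jam2 (-2.25), Jam3 (-1.87) and Cd99l2 (-1.94) were called lower on it as well. This scaling called 13681 of the 15054 genes tested, with a median log2 fold change of -1.60 over all genes, so a call was the rule on it. Jam2, Jam3 and Cd99l2 lay below that median and the other adhesion genes above it.

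By TMM scaling the mean of the endothelial markers moved much less, while single markers moved in both directions. Of 12 endothelial markers 6 were higher at 6 weeks and 2 lower, where 13.5% of all genes were higher and 11.5% lower. The lower 2 were Tie1 (log2 -0.44, adjusted P = 0.00038) and Tek (-0.75, adjusted P = 2.2e-05), both receptors of the angiopoietin system. With library size only, 9 of the 12 were higher and 1 lower, with a median of 0.52 beside 0.24 over all genes. With log2(TPM + 0.1), 9 were higher and 1 lower, with a median of 0.63 beside 0.37. These scalings called 5820 and 7463 of the 15054 genes tested. The summed level was 1346 to 1493 CPM at 2 weeks and 1529 to 2022 CPM at 6 weeks, and the mean log2 CPM differed from control by 0.06 at 2 weeks (exact permutation P = 0.251) and by 0.21 at 6 weeks (P = 0.00866, adjusted 0.0289). With the mice scaled to these markers, 8 of the 10 adhesion genes were called at 6 weeks, 5 higher and 3 lower. That scaling called 5444 of the 15054 genes tested, with a median log2 fold change of -0.23 over all genes. The 6 cardiomyocyte markers were all lower at 6 weeks, where 11.5% of all genes were. Their mean log2 CPM was lower by 0.50 (exact permutation P = 0.00216, adjusted 0.0108), and 1 of them was called lower on the TPM scale. Of 5 fibroblast markers Pdgfra alone was called at 6 weeks, as lower, where 25.0% of all genes were called. By edgeR 0 of 6 pericyte and smooth muscle markers were called at 6 weeks (0 at an unadjusted P under 0.05, 0 by DESeq2 and 2 higher on the TPM scale). DESeq2 called 3954 of the 15054 genes tested at 6 weeks, and log2(TPM + 0.1) called 7463.

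**Figure D5:**
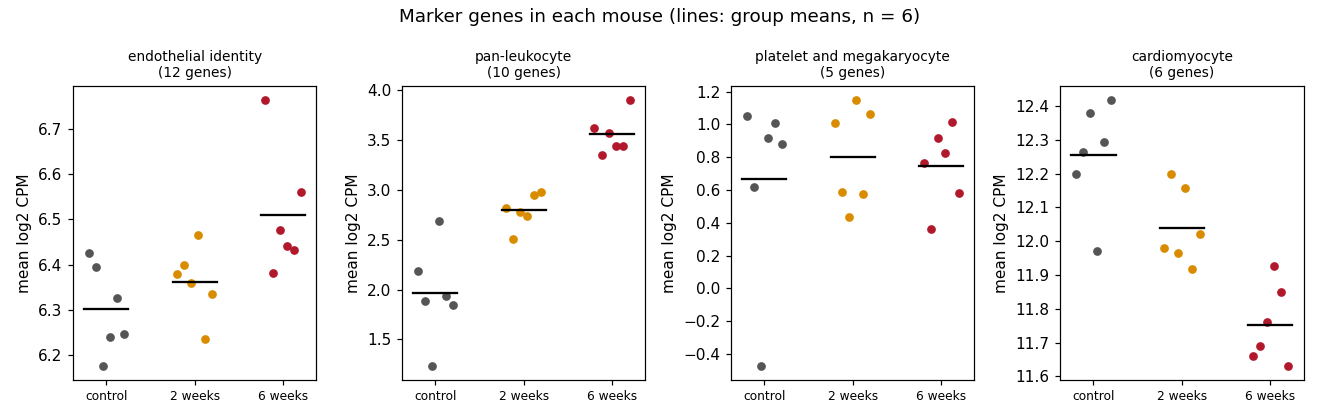
Mean log2 CPM (y axis, ranges differ between panels) of 4 marker lists in every mouse (points) with group means (lines), for control, 2 weeks and 6 weeks post-IR (x axis). The pan-leukocyte mean is higher by 0.83 at 2 weeks and 1.59 at 6 weeks, the endothelial mean by 0.06 and 0.21, the platelet mean by 0.14 and 0.08, and the cardiomyocyte mean is lower by 0.21 and 0.50.

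For each gene called at 6 weeks, the genes whose standardized log2 CPM ran closest to it over the 18 mice were listed, as a description of likeness. Nearest to Selplg were Tmem176a, Was and Ptprc (root mean square difference 0.275, 0.284 and 0.293 SD), of which Was and Ptprc are pan-leukocyte markers. Nearest to Icam1 were Aif1, a marker of macrophages, Ptpn7, a phosphatase of blood cells, and the chemokine Cxcl16 (0.295 to 0.322). Nearest to Icam2 were Tmem154, Ttyh2 and Nes (0.237 to 0.307), nearest to Sele were Ptchd1, Atp6v1a and Kctd10 (0.382 to 0.405), and nearest to Selp were Fn1, the fibronectin gene, Nsg1 and Myof (0.425 to 0.464). Among the lower genes, Jam2 ran closest to Pln, the cardiomyocyte gene of phospholamban, Tspan7 and Ube2b (0.416 to 0.433), Jam3 to Slc20a2, E2f6 and Ube2h (0.539 to 0.576), and Cd99l2 to Gsta4, Pstk and Mgrn1 (0.285 to 0.399). All 18 mice enter each likeness, so differences between groups and within groups are both in it.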

How the data were processed

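RNA-seq libraries of 18 mice were prepared with a total RNA kit and sequenced individually. The authors aligned reads to GRCm38 with STAR, quantified transcripts with Salmon 1.0 (per the labels) and summed them to genes with tximport. The authors deposited these estimated counts as fractional values, unscaled between mice. The deposited TPM values are Salmon's abundances and are scaled for length and depth within each mouse, so that they sum to the same total in each and a change in a few very abundant genes moves all others. Whether the quantification used strand is not given in the sources used here.

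Counts were rounded, a gene entered the test if 6 or more mice reached 0.23 CPM, and the 3 groups were fitted by quasi-likelihood in edgeR 4.0.16 (R 4.3.3) with TMM factors, which ranged from 0.844 to 1.13. Tests were two-sided and adjusted by the Benjamini-Hochberg method over all genes tested in a comparison, and a gene was called at an adjusted P under 0.05. The SE is the absolute log2 fold change over the square root of F, and the 95% interval is taken from it with the t quantile at each gene's total degrees of freedom. Single values per mouse, the mean log2 CPM of a marker list (prior count 2), were compared with exact permutation tests (scipy 1.17.1). Intervals and floors cover counting error or the spread between mice only. All 10 genes were named, with the 3 smallest adjusted P values at 6 weeks among called genes of each list and, for each called gene, the 3 genes with the smallest root mean square difference in standardized log2 CPM. The genes and lists were chosen with earlier results of these data known.

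Gene positions are those of GENCODE M21 on GRCm38, and promoters and their starts are from RefSeq on GRCm38.p6. On simulated counts for the 6-week comparison (15059 genes), 69 of 100 genes with a log2 change of 1 and 93 of 100 with a change of 2 were found, 14 unchanged genes were called, and none was called in a comparison without changes. Alternatives were DESeq2 1.42.0, limma 3.58.1 voom with quality weights, limma on log2 TPM with pseudocounts of 1 and 0.1, other scalings and filters, a block for the replicate number, a covariate of Y-linked expression, leaving out each mouse, and a fold threshold. 1 gene of the lists entered the counts over its list, and its own values are not reported here.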

Additional observations from a re-analysis of the deposited data

Results flagged for a closer look

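In 4 of 30 groups of 6 mice, 1 mouse stood apart from the other 5 by a gap that took up most of the group's range, which chance gives in about 1 of 20 groups. Control mouse 3 had the lowest Icam1 level, 7.40 CPM, with the next control at 12.2 CPM. The same mouse had the lowest sums of all mice for pan-leukocyte (36.6 CPM), platelet (9.44), endothelial (1205), macrophage (99.4), lymphocyte (0.648), neutrophil (0.185) and fibroblast (735) markers. Its sums of cardiomyocyte (43159 CPM), pericyte and smooth muscle (1118) and venous and endocardial (144) markers were not the lowest. Without this mouse the log2 fold change of Icam1 was 0.59 at 2 weeks and 1.06 at 6 weeks, both still called. At 6 weeks, mouse 6 had the highest Icam1 level, 33.0 CPM, with the next at 29.0 CPM, and it also had the highest pan-leukocyte (243 CPM) and macrophage (320 CPM) sums of all mice. For Jam2, mouse 3 was highest at 2 weeks with 165 CPM (next 127 CPM), and mouse 5 was highest at 6 weeks with 150 CPM (next 121 CPM).

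The change from control differed between 2 and 6 weeks, by the direct edgeR test of the 2 groups of mice, for Sele (log2 difference 1.51, adjusted P = 0.0017), Selplg (0.82, adjusted P = 0.0218) and Icam1 (0.47, adjusted P = 0.0345). For each of the 3 genes all 6 mice at 6 weeks lay above all 6 mice at 2 weeks. The cause of these differences was not tested.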

How the results depend on the processing

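Under the 12 alternatives and the omission of each mouse, 630 of 720 values of single genes kept their direction and their side of the threshold, 34 reversed, 26 lost and 30 gained a call. At 6 weeks 8 genes were called in every fit that left out 1 mouse (8 to 8), and 4 with the added fold threshold. At 2 weeks the count of 3 became 0 with the fold threshold, 5 with DESeq2, 5 with the Y-linked covariate and 6 with leukocyte-marker scaling, and 2 to 4 with 1 mouse left out. From 2 to 6 weeks the count of 3 became 1 with the fold threshold and 6 with leukocyte-marker scaling, and 1 to 4 with 1 mouse left out, 1 being reached without 2-week mouse 2, 6-week mouse 3 or 6-week mouse 6. Leukocyte-marker scaling called 11498 of the 15054 genes tested at 2 weeks and 11372 between 2 and 6 weeks.

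Leukocyte-marker scaling, which by its construction lowers what rose less than those markers, reversed at 2 weeks Icam1 (-0.0878), Icam2 (-0.45), Vcam1 (-0.70), Sele (-0.56) and F11r (-0.79), at 6 weeks Icam1 (-0.38), Icam2 (-0.85), Vcam1 (-1.28), Selp (-0.0187) and F11r (-1.46), and from 2 to 6 weeks Icam1 (-0.29), Icam2 (-0.40), Vcam1 (-0.59), Selp (-0.11) and F11r (-0.67). Endothelial-marker scaling reversed F11r (-0.0030 at 2 weeks, -0.0608 at 6 weeks, -0.0578 between them). With log2(TPM + 1) and log2(TPM + 0.1), reversed values at 2 weeks were 0.0031 and 0.0043 for Jam3 and 0.0887 and 0.0924 for Cd99l2, at 6 weeks 0.0988 and 0.109 for Jam3 and 0.0965 and 0.101 for Cd99l2, and from 2 to 6 weeks 0.0958 and 0.105 for Jam3, 0.0041 and 0.0045 for Jam2, and 0.0078 and 0.0082 for Cd99l2. Library size only turned Jam3 to 0.0639 from 2 to 6 weeks. F11r at 2 weeks ranged from -0.0186, without 2-week mouse 1, to 0.11. The cause of these reversals was not tested.

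Replicate numbers do not pair the mice: same-numbered mice correlated between -0.08 and 0.11 in 18 pairs, 2 over 0.1, and 3 matched best with their own number. With the replicate block 4, 8 and 3 genes were called at 2 weeks, at 6 weeks and between them. Counts of called genes in the 5 lists, in 3 comparisons, moved by over 1.5 times in 64 of 180 cases. Depth limits Selp and the cytokines, several of which lie near the floor of 3 counts.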

Other observations

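Other genes of the adhesion lists were higher at 6 weeks by the edgeR test and were picked after their values had been seen. Ccl2, the chemokine that draws monocytes, averaged 1.71, 3.37 and 6.97 CPM in the control, 2-week and 6-week mice (log2 1.95 at 6 weeks, adjusted P = 0.0061). Jaml, a junctional adhesion molecule of leukocytes, averaged 0.447, 1.08 and 1.94 CPM (log2 2.07, adjusted P = 0.0082), while its epithelial and cardiac partner Cxadr averaged 48.5, 46.8 and 41.6 CPM and was not called (log2 -0.22, adjusted P = 0.21). Glycam1, a mucin of lymph node vessels, had 0 counts in every mouse.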
